A study of Mus musculus with 56 samples.

Results

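The renin-angiotensin system is a peptide cascade that raises blood pressure and retains salt. The liver is the main source of its precursor, angiotensinogen, which renin from the kidney cuts to angiotensin I. Angiotensin-converting enzyme then removes the last residues to give angiotensin II, which acts on the type 1 receptor, and several peptidases on cell surfaces shorten or inactivate the peptides. Cathepsin G, a serine protease of neutrophil granules, can also produce angiotensin II.

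Messenger RNA of 6 genes of this system was followed in the liver: Agt (angiotensinogen), Ace (angiotensin-converting enzyme), Ctsg (cathepsin G), Enpep (aminopeptidase A, which turns angiotensin II into angiotensin III), Mme (neprilysin, which cuts angiotensin I to a shorter peptide with opposing actions) and Agtr1a (the type 1a receptor of angiotensin II). The 6 genes were chosen by name with results from these same counts known, so their levels and differences are given as a description. The calls of the fit across all genes are printed for them as part of that description, without p-values, and support nothing. All 6 were among the 45513 genes of the count tables, and 5 of them had enough reads for the fit across all genes. Ctsg did not.

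The livers came from 56 female APOE*3Leiden.CETP mice, a strain with human transgenes that give it a human-like lipoprotein metabolism, 9 to 14 weeks old at the time of use. Every mouse, controls included, ate a Western-type diet with 15% cacao butter and 0.15% cholesterol and received gavages of 5% carboxymethyl cellulose as vehicle. Of 8 mice each, the groups were control (vehicle only), imatinib at 150 mg/kg given 2 times a day, nilotinib at 10 or 30 mg/kg once a day, ponatinib at 3 or 10 mg/kg once a day, and L-NAME, an inhibitor of nitric oxide synthases, at 0.12 to 0.20% in the drinking water together with vehicle gavages. Imatinib, nilotinib and ponatinib are tyrosine kinase inhibitors (TKIs) used against BCR-ABL1 in chronic myeloid leukemia. The TKI and control mice were treated for 16 weeks, and the duration of L-NAME was not given in the sources used here. The mice carried no leukemia, and males were not studied.

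Between 5342379 and 97473341 reads per mouse fell on genes, with a median of 7570238, and 1 L-NAME mouse had the highest number. Hepatocyte markers were present in every group, with all 8 of the listed markers detected. Of the reads assigned to a gene or to no annotated gene feature, 8.22% ± 0.43 (SD, n = 8) had no feature in the controls. The other groups averaged between 8.79% and 11.35%, the highest with ponatinib 10 mg/kg. Below, this is called the share of reads outside genes, but it can include reads from introns. This share moves with the treatments, and where a call was lost with this share as a covariate, the value under the covariate is given beside it.

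The coding sequences hold the parts of the system that meet each other. In Agt the 30 bases that encode angiotensin I are shown because they carry the cut made by Ace, and the capitals mark the last 2 codons, which that cut removes. They lie in exon 2 of 5, on the minus strand of chr8:124564450-124564479 (GRCm38, GENCODE vM21), at codons 30 to 39 of an open reading frame of 482.
Agt, angiotensin I: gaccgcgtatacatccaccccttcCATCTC
Ace, Enpep and Mme are zinc peptidases, and the stretch of 15 bases that encodes the zinc-binding motif of each is shown because it is the part that these 3 enzymes share. The capitals mark the codons of the motif's histidine, glutamate and histidine. Ace has 2 copies, 1 in each of its catalytic domains, in exon 8 (chr11:105972910-105972924, plus strand) and exon 20 (chr11:105985094-105985108, plus strand) of 25. Enpep has 1 copy in exon 5 of 20 (chr3:129309772-129309786, minus strand), and Mme has 1 in exon 18 of 23 (chr3:63362021-63362035, plus strand).
Ace, exon 8: CACGAGatgggcCAC
Ace, exon 20: CACGAAatgggcCAC
Enpep: CACGAActtgtaCAC
Mme: CATGAAatcacaCAT
No such motif was found in the reading frames of Agt, Agtr1a and Ctsg.

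In order of level, Agt stood far above the other genes. Levels are given as CPM, the reads of a gene relative to library size with TMM scaling, and between genes they are compared per kb of exon. Over all 56 mice the mean was 503.2 CPM per kb for Agt, which placed it 91st of the 14267 named genes with enough reads for the fit. Agtr1a followed at 38.3 CPM per kb (rank 1198), then Enpep at 24.9 (rank 1680) and Mme at 5.31 (rank 5601). Ace was at 0.519 CPM per kb (rank 12393), so that most of the ranked genes were above it. Ctsg was close to the limit of detection, with 19 reads in 3 of the 56 mice. Of the enzymes that act after renin, Enpep and Mme thus had a higher level per length than Ace.

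**Figure D1:**
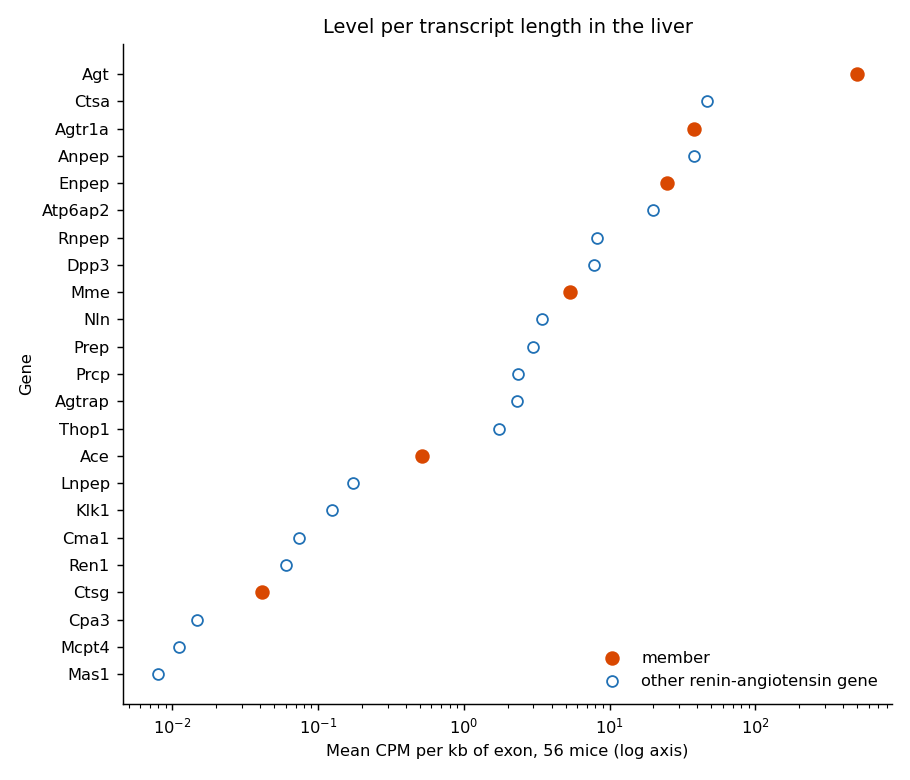
Mean level of each renin-angiotensin gene with reads, in CPM per kb of exon over 56 mice on a log axis; filled points are the 6 genes described here and open points the other genes of the system. Agt stands at 503.2 CPM per kb, Ace at 0.519 and Ctsg below both.

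Against control, Ace was lower with imatinib, Agt was higher with ponatinib 10 mg/kg, and Enpep was lower with nilotinib and with L-NAME, while Mme and Agtr1a stayed closer to control. A gene is called differentially expressed here at a Benjamini-Hochberg adjusted p below 0.05 over the 14314 genes in edgeR's quasi-likelihood test. In each comparison at most 1 of the 5 genes was called, and nothing is read from these counts, since the genes were chosen with such results known. With imatinib it was Ace, lower, where 10.3% of all genes were called, and with nilotinib 10 mg/kg it was none, where 1.41% were. With nilotinib 30 mg/kg it was Enpep, lower (5.77% of all genes called), and with L-NAME again Enpep, lower (11.8%). With ponatinib 10 mg/kg it was Agt, higher (13.1%), and with ponatinib 3 mg/kg none (0.0419%). Between the doses of ponatinib none of the 5 was called (1.39% of all genes), nor between those of nilotinib (0%). All 6 comparisons with control share the same 8 control mice.

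**Figure D2:**
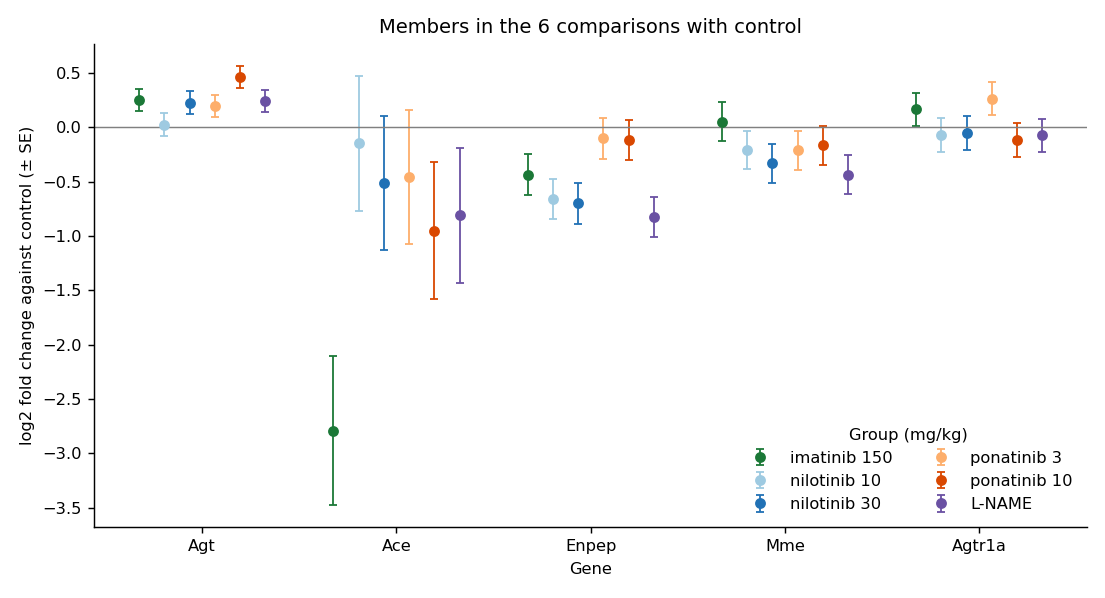
log2 fold change against control, with its SE, of the 5 genes with enough reads, by group (doses in mg/kg). Ace with imatinib stands apart at -2.79, Agt is at or above 0 in all groups, and Enpep is lowest with L-NAME at -0.82.

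Agt (ENSMUSG00000031980, chr8:124556534-124569706) was higher on average in every treated group than in control mice. In control mice its level ran from 612 CPM over a median of 774 to 1133 CPM. With ponatinib 10 mg/kg it ran from 927 over 1167 to 1323 CPM, and 5 of the 8 mice lay above the highest control mouse. The high dose of ponatinib had a mean of 1135 ± 127 CPM and the controls one of 823 ± 171 CPM (SD, n = 8), which is 138% of control and a log2 fold change of 0.46 (SE 0.10).

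The other treated groups lay between control and the high dose of ponatinib. The mean of Agt was 979 ± 77.4 CPM with imatinib, 965 ± 132 CPM with nilotinib 30 mg/kg, 945 ± 83.9 CPM with ponatinib 3 mg/kg and 976 ± 127 CPM with L-NAME (SD, n = 8). The log2 fold changes of these groups against control were 0.25, 0.23, 0.20 and 0.25, each with an SE of 0.10. All 8 mice given imatinib and all 8 given ponatinib 3 mg/kg were above the control mean, but none was above the highest control mouse. With nilotinib 10 mg/kg the mean was 838 ± 114 CPM (SD, n = 8), and its log2 fold change of 0.03 was smaller than its SE of 0.10.

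In the order of group means of Agt, only ponatinib 10 mg/kg was separated from its neighbour, imatinib, by more than the SD of either group. Between the doses of ponatinib the log2 fold change of Agt was 0.26 (SE 0.10), and between the doses of nilotinib 0.20 (SE 0.10). With the share of reads outside genes as a covariate the log2 fold change with ponatinib 10 mg/kg was 0.36, and it was no longer called. Hepatocytes make most of the body's angiotensinogen, and the 8 hepatocyte markers summed to 123968 ± 24494 CPM at that dose and to 113008 ± 19277 CPM in the controls (SD, n = 8). Of these 8 markers 2 were called higher and 2 lower with ponatinib 10 mg/kg, and their part in the level of Agt was not tested.

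**Figure D3:**
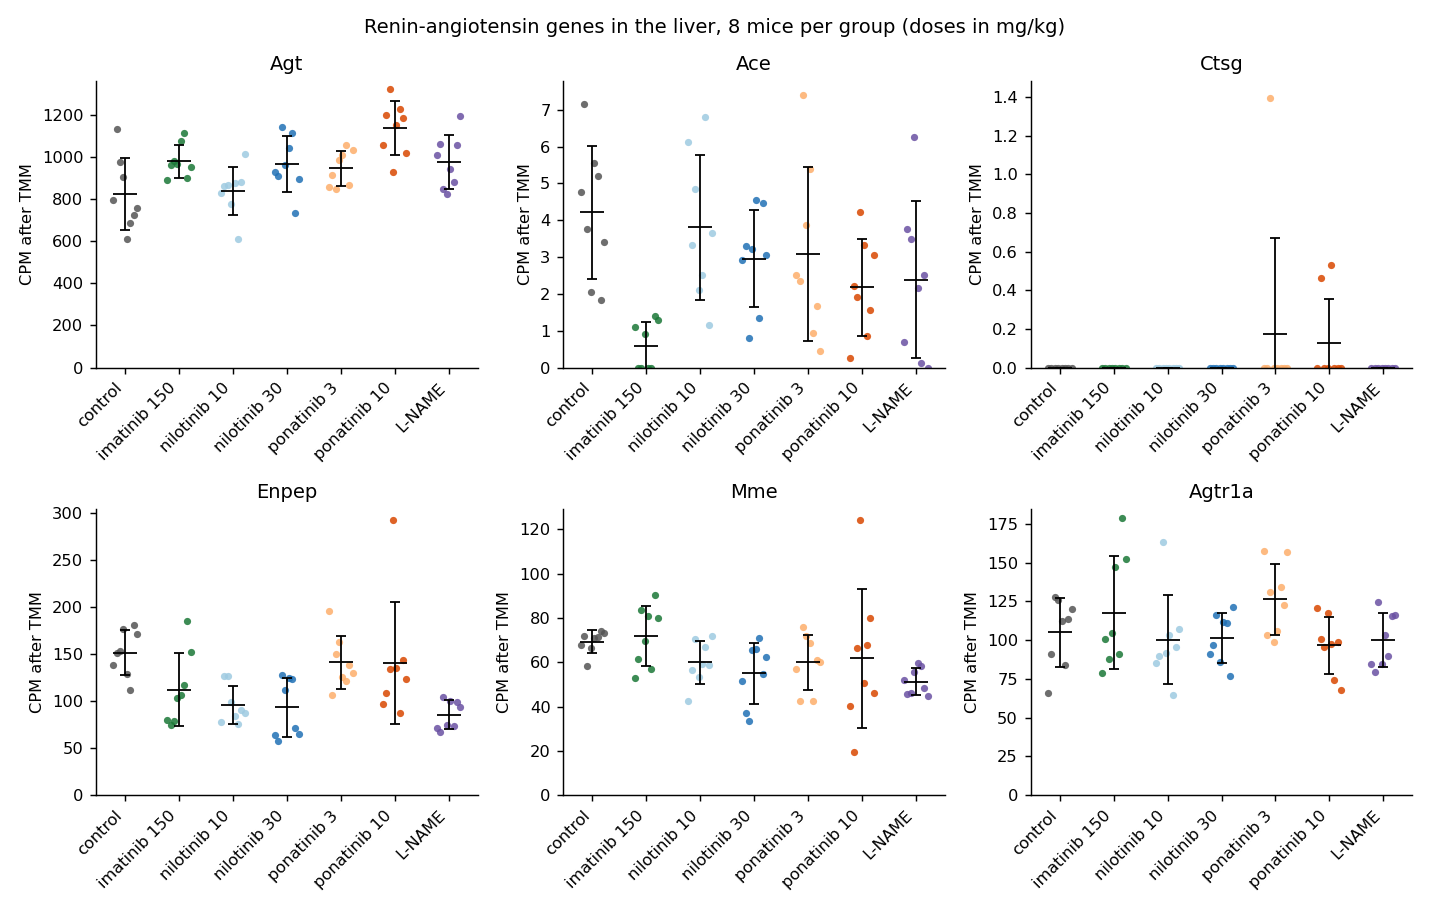
Level of the 6 genes in each mouse, in CPM after TMM scaling, by group (doses in mg/kg); points are mice, and the horizontal line and bar give the mean and SD of 8 mice. Ace is at 1.40 CPM or less in all mice given imatinib and at 1.83 CPM or more in all control mice, and Enpep in the L-NAME mice ends at 104 CPM, below the 112 CPM of the lowest control mouse.

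Ace (ENSMUSG00000020681, chr11:105967945-105989964) was lower in all 8 mice given imatinib than in any control mouse, in a comparison in which 10.3% of all genes were called. Control mice had between 1.83 and 7.16 CPM, with a median of 4.28. Mice given imatinib had between 0 and 1.40 CPM, with a median of 0.455, so that the ranges did not overlap. These libraries held 39 Ace reads in all, between 0 and 13 per mouse, and 4 of the 8 mice had none. The 8 control libraries held 357, with at least 14 in each. The imatinib mean of 0.589 ± 0.645 CPM was 14.0% of the control mean of 4.22 ± 1.81 CPM (SD, n = 8), and the log2 fold change was -2.79 (SE 0.68).

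In the remaining groups Ace overlapped with control. With nilotinib 10 mg/kg it ran from 1.16 over 3.49 to 6.80 CPM, and with nilotinib 30 mg/kg from 0.795 over 3.15 to 4.55 CPM. With ponatinib 3 mg/kg it ran from 0.442 over 2.44 to 7.41 CPM, and with ponatinib 10 mg/kg from 0.268 over 2.07 to 4.22 CPM. All 8 mice given ponatinib 10 mg/kg were below the control median, and 3 of them below the lowest control mouse. L-NAME mice ran from 0 over 2.33 to 6.26 CPM, with 3 mice below the lowest control mouse and 1 mouse without a read.

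Ace had a lower mean than control in all 6 treated groups. The log2 fold change was -0.95 (SE 0.63) with ponatinib 10 mg/kg, -0.81 (SE 0.62) with L-NAME, -0.51 (SE 0.62) with nilotinib 30 mg/kg, -0.46 (SE 0.62) with ponatinib 3 mg/kg and -0.15 (SE 0.62) with nilotinib 10 mg/kg. Ace was counted in few reads, the SEs are wide, and each of these 5 fold changes was smaller than 1.96 times its SE. In the order of group means the only gap larger than the SD of both neighbours was that between ponatinib 10 mg/kg and imatinib.

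Endothelium and macrophages can carry ACE, and a bulk sample cannot tell fewer cells of a type from less RNA per cell. The summed level of the sinusoidal endothelial markers was 468 ± 87.3 CPM with imatinib and 444 ± 146 CPM in the controls (SD, n = 8), and 0 of 10 were called. Within this sum the genes went both ways. Clec4g, from 45.8 to 67.4 CPM, Fcgr2b, Kdr, Eng and Stab1 had a higher mean with imatinib than in the controls. Cdh5, from 41.4 to 28.7 CPM, Tek, Lyve1, Pecam1 and Stab2 had a lower one. Markers of Kupffer cells, the macrophages of the liver, were lower, with sums of 421 to 883 CPM with imatinib and 749 to 1520 CPM in control mice, and 4 of 8 were called, all lower. Markers of stellate cells and fibroblasts ran from 278 to 428 CPM with imatinib and from 328 to 1036 CPM in control mice, and 2 of 8 were called, both lower. On average the Kupffer cell sum was at 59.5% of control and the stellate cell sum at 50.4%, whereas Ace was at 14.0%. The Kupffer cell sum was lower mostly through Cd5l, from 595 to 254 CPM, while Clec4f went from 183 to 206 CPM. The stellate cell sum was lower mostly through the 2 called genes, the collagens Col1a1, from 101 to 12.5 CPM, and Col3a1, from 204 to 33.6 CPM. The median log2 fold change of the 8 stellate cell and fibroblast markers was -0.40, and Des and Hhip had a higher mean than in the controls. The stellate cell sum was nearly as low with ponatinib 10 mg/kg, at 56.8% of control, where Ace was at 51.7%. None of the markers of these 3 lists was at 0 in any group, and their part in the level of Ace was not tested. Gm11651, an antisense gene that overlaps exons of Ace, had 0 reads in the 56 mice. The strand setting of the counting was not given, and counting without strand leaves reads in shared exons on neither gene. The 0 therefore does not show whether the overlap took reads from Ace.

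**Figure D4:**
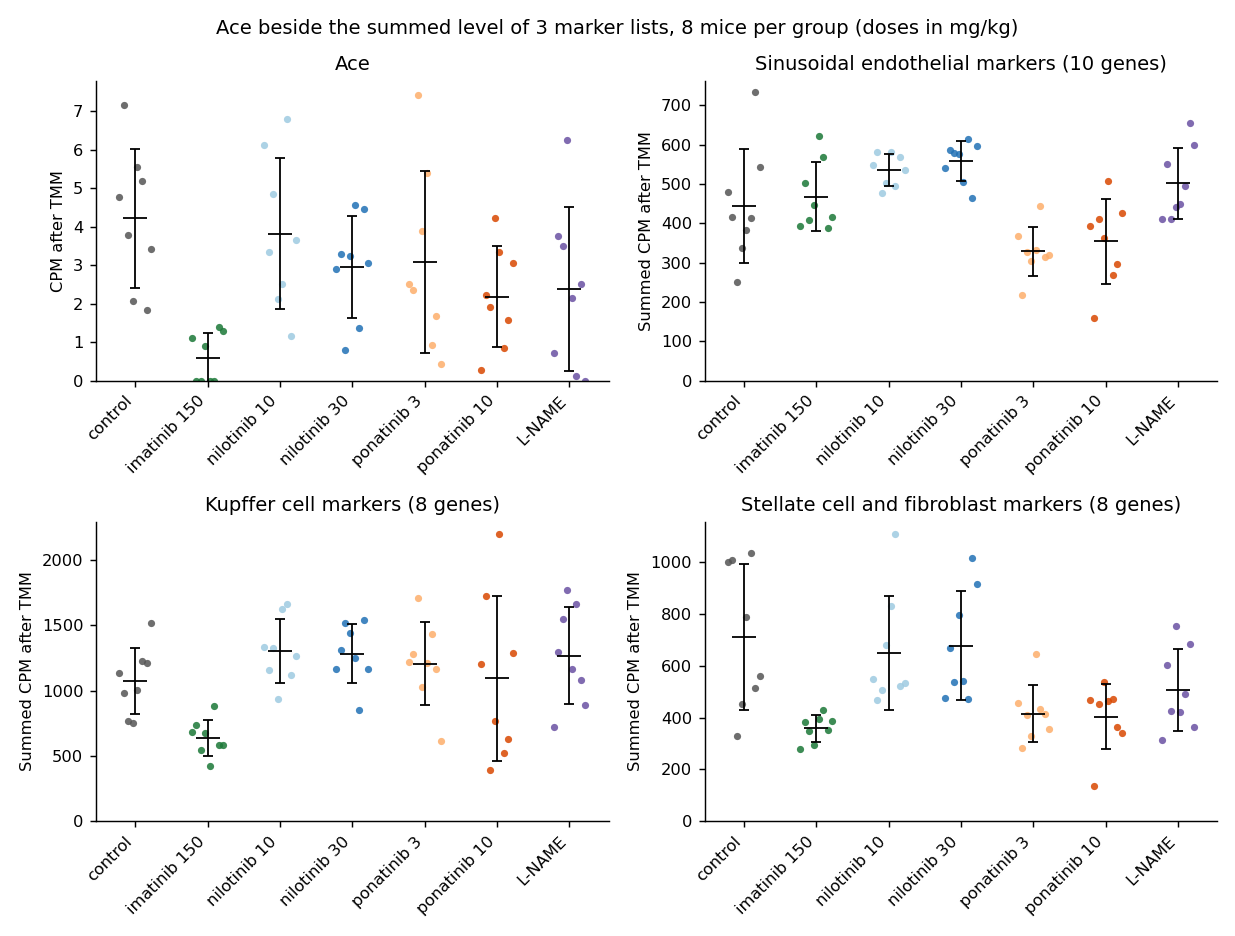
Ace in CPM and the summed CPM of 3 lists of cell type markers in each mouse, by group (doses in mg/kg); lines and bars give the mean and SD of 8 mice. With imatinib Ace is at 14.0% of control, the Kupffer cell sum at 59.5% and the stellate cell sum at 50.4%. The endothelial sum, whose genes went both ways, is at 105%.

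Ctsg (ENSMUSG00000040314, chr14:56099881-56102574) was found only in mice given ponatinib. It had 10 reads in 1 mouse given 3 mg/kg, 5 and 4 reads in 2 mice given 10 mg/kg, and none in the other 53 mice. In the 8 control mice together, 0 of 80855542 gene reads were on Ctsg, which allows a level of up to 0.0371 CPM, and in the imatinib, nilotinib and L-NAME groups the limits were between 0.0199 and 0.0511 CPM. The 3 mice with Ctsg reads were among the 4 with the highest summed level of neutrophil and myeloid markers, at 174, 52.5 and 28.4 CPM. The remaining mouse of these 4, also given ponatinib 3 mg/kg, had 74.9 CPM and no Ctsg read. In control mice this sum was between 2.70 and 5.66 CPM, and Mpo and Ngp of the 8 markers were at 0. L-NAME mice, without a Ctsg read, had sums between 6.61 and 25.9 CPM, all above the highest control mouse. The ranges of the other groups, those of ponatinib included, overlapped with control. The sum rested mostly on Prtn3, with a mean of 20.4 of 32.9 CPM at ponatinib 10 mg/kg. Of the 8 markers 3 had enough reads for the fit, and 1 was called at that dose, higher. Camp had a lower mean at that dose than in the controls, at 0.0218 against 0.0823 CPM, and the other markers a higher one. The part of neutrophil and myeloid cells in the reads of Ctsg was not tested.

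Enpep (ENSMUSG00000028024, chr3:129269175-129332720) was lower with L-NAME and with both doses of nilotinib, and less so with imatinib. Control mice ran from 112 over 152 to 181 CPM. With L-NAME the level ran from 66.6 over 84.5 to 104 CPM, and no mouse reached the control range, in a comparison in which 11.8% of all genes were called. The L-NAME mean of 85.5 ± 15.2 CPM was 56.5% of the control mean of 151 ± 24.2 CPM (SD, n = 8), a log2 fold change of -0.82 (SE 0.19). Without the most deeply sequenced L-NAME mouse the log2 fold change was -0.78.

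With nilotinib 10 mg/kg Enpep ran from 75.5 over 89.2 to 126 CPM, and with 30 mg/kg from 57.4 over 91.6 to 128 CPM. All 16 mice given nilotinib were below the control mean, and 6 mice at the low dose and 4 at the high dose were below the lowest control mouse. At the high dose 4 mice lay between 57.4 and 71.2 CPM and the other 4 between 112 and 128 CPM, with none in between. The log2 fold change was -0.66 (SE 0.19) at 10 mg/kg and -0.70 (SE 0.19) at 30 mg/kg, and between the doses it was -0.04 (SE 0.19). Imatinib gave a mean of 112 ± 38.8 CPM (SD, n = 8) and a log2 fold change of -0.43 (SE 0.19), with 5 mice below the lowest control mouse and 1 above the highest.

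Ponatinib left Enpep near control on average, at 141 ± 27.8 CPM for the low dose and 139.9 ± 64.6 CPM for the high dose (SD, n = 8). The mean at 10 mg/kg rests on 1 mouse at 292 CPM, and without it the mean of the remaining 7 mice was 118 ± 21.2 CPM, or 78.1% of control. The same mouse also had the highest Mme level of its group. With the share of reads outside genes as a covariate, the log2 fold changes of Enpep were -0.67 with L-NAME and -0.56 with nilotinib 30 mg/kg, and neither was called any longer.

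Mme (ENSMUSG00000027820, chr3:63241537-63386030) varied little between control mice, from 58.3 over 71.2 to 73.9 CPM. With L-NAME it ran from 44.5 over 50.2 to 59.6 CPM, and 6 of 8 mice were below the lowest control mouse. The L-NAME mean of 51.3 ± 6.04 CPM was 74.1% of the control mean of 69.3 ± 5.11 CPM (SD, n = 8), a log2 fold change of -0.43 (SE 0.18). Nilotinib gave log2 fold changes of -0.21 (SE 0.18) at 10 mg/kg and -0.33 (SE 0.18) at 30 mg/kg, and imatinib one of 0.05 (SE 0.18).

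With ponatinib 10 mg/kg the mice spread more widely, from 19.6 over 58.4 to 124 CPM for Mme, so that 4 mice were below and 2 above the whole control range. The mouse at 19.6 CPM had the highest neutrophil and myeloid sum of all 56, 5 reads of Ctsg, and the lowest hepatocyte sum of its group, 70869 CPM. The part of these markers in its Mme level was not tested. At 3 mg/kg Mme ran from 42.5 over 60.6 to 75.9 CPM. The log2 fold changes of the doses against control were -0.17 and -0.21, each with an SE of 0.18.

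Agtr1a (ENSMUSG00000049115, chr13:30336441-30382867) overlapped with control in every group. Controls ran from 65.8 over 113 to 128 CPM, and mice on ponatinib 3 mg/kg from 98.5 over 127 to 157 CPM, where 4 were above the highest control mouse. The mean was 126 ± 23.0 CPM for the low dose of ponatinib, 118 ± 36.6 CPM for imatinib and 105 ± 22.3 CPM for control (SD, n = 8), and between 96.7 and 101 CPM in the other 4 groups. The log2 fold change with ponatinib 3 mg/kg was 0.27 (SE 0.15), and between 10 and 3 mg/kg it was -0.38 (SE 0.15). No neighbours in the order of group means of Agtr1a, Enpep or Mme were apart by more than the SD of both groups.

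Of all pairs of compounds only ponatinib and nilotinib were given at the same dose and schedule, 10 mg/kg once a day, so 1 pair was compared. The equal dose is not an equal exposure. By the study's estimates plasma exposure at this dose was near that of patients for nilotinib and above it for ponatinib. The part of exposure in the differences below was not tested. Ponatinib holds a carbon-carbon triple bond between its ring systems that nilotinib lacks. Agt was higher with ponatinib, at 1135 against 838 CPM, with a log2 fold change of 0.44 (SE 0.10), and it was called, as were 2.06% of all genes. It was not called when only these 16 mice were fitted. Enpep had a log2 fold change of 0.54 (SE 0.19) in the same direction that was not called, and this value includes the mouse at 292 CPM. Ace was at -0.80 (SE 0.63), Agtr1a at -0.05 (SE 0.15) and Mme at 0.04 (SE 0.18). Imatinib was given at another dose and 2 times a day, and its values stand beside those of the other drugs without a comparison.

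The levels of the genes moved together only in part from mouse to mouse. With the group means taken out of log2 CPM, Pearson's r over the 56 mice was 0.55 for Agtr1a with Enpep and 0.42 for Enpep with Mme. For Ace with Agt it was -0.35, and the remaining pairs were between -0.15 and 0.18. These values are descriptions over mice that share library depth and RNA quality within a library. By the same measure the genes most like Agt were Aes (0.76), Rdh7 (0.76), Serpina1c (0.72), Haao (0.72) and Rgn (0.69). Enpep was most like AI182371 (0.81), Cyb5b, Col18a1, Furin and Pygl (each 0.80). Agtr1a was most like Sdc2 (0.68), Atl2 (0.66), F13b (0.66), Cdo1 (0.65) and Ireb2 (0.65), and Mme was most like Ugp2 (0.70), Hao2 (0.64), Gpam (0.62), Lactb2 (0.62) and Pdha1 (0.60). For Ace the values were lower except for Nup35 (0.69), with Prkcd and Man2b2 at 0.57 and Tank and Rap1gap2 at 0.54, and they rest on few reads.

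A wider list of 20 further genes of the system, from the prorenin receptor to the peptidases that degrade angiotensins, was tested in the same fit. This list too was drawn up with earlier results of these data known, and its p-values are to be read with that limit. Of these, 11 had enough reads. The remaining 9 were Ren1, Cma1, Mcpt4, Cpa3, Klk1, Agtr1b, Agtr2, Mas1 and Mrgprd, among them renin, chymases and the angiotensin receptors other than Agtr1a. Agtr1b, Agtr2 and Mrgprd had 0 reads in all 56 mice, which allows a level of up to 0.00544 CPM in each. Klk1, Mcpt4 and Agtr1b have close paralogs, and reads that align to more than 1 place are counted on neither.

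In edgeR's quasi-likelihood test 0 of the 11 genes passed for imatinib and for the low doses of nilotinib and ponatinib, and DESeq2 gave 0 as well. At an unadjusted p below 0.05 the numbers were 1, 3 and 1, and limma's voom called 1 gene in each of these comparisons. The shares of all genes at that p or in voom were not counted, so nothing is read from these numbers. With ponatinib 10 mg/kg 1 gene was higher and 1 lower, where 13.1% of all genes were called. With nilotinib 30 mg/kg 2 were lower (5.77% of all genes called), and with L-NAME 1 was higher and 2 lower (11.8%). For imatinib, nilotinib 10 mg/kg and ponatinib 3 mg/kg the share of all genes was 10.3%, 1.41% and 0.0419%. The median log2 fold change of the 11 genes was -0.29 with ponatinib 10 mg/kg and -0.27 with L-NAME, where the medians over all genes were -0.01 and 0.02. It was -0.17 with imatinib, -0.11 with ponatinib 3 mg/kg, -0.08 with nilotinib 10 mg/kg and 0.01 with nilotinib 30 mg/kg.

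Ctsa, cathepsin A, a lysosomal carboxypeptidase that can trim angiotensin I, rose with L-NAME and with ponatinib 10 mg/kg. Control mice ran from 167 over 186 to 219 CPM, L-NAME mice from 216 over 253 to 280 CPM, and mice given ponatinib 10 mg/kg from 187 over 238 to 299 CPM. All but 1 of the L-NAME mice and 5 of the ponatinib mice were above every control mouse. The log2 fold change was 0.39 (SE 0.09, adjusted p = 0.00178 from edgeR) with L-NAME and 0.34 (SE 0.09, adjusted p = 0.00554 from edgeR) with ponatinib 10 mg/kg. Ctsa was also higher in the other groups, where it was not called. There the log2 fold change was 0.22 with ponatinib 3 mg/kg, 0.18 with each dose of nilotinib and 0.14 with imatinib, each with an SE of 0.09.

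Anpep, aminopeptidase N, which shortens angiotensin III, fell with nilotinib 30 mg/kg and with L-NAME. It ran from 148 over 183 to 234 CPM in control mice, from 89.8 over 125 to 157 CPM with nilotinib 30 mg/kg and from 97.0 over 142 to 182 CPM with L-NAME. The log2 fold change was -0.55 (SE 0.12, adjusted p = 0.00188 from edgeR) with nilotinib 30 mg/kg and -0.40 (SE 0.12, adjusted p = 0.0141 from edgeR) with L-NAME. With the share of reads outside genes as a covariate it was -0.31 with L-NAME and no longer called.

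Nln, neurolysin, an endopeptidase that can cut angiotensin I, also fell with nilotinib 30 mg/kg and L-NAME, with a log2 fold change of -0.55 (SE 0.17, adjusted p = 0.0413 from edgeR) and -0.49 (SE 0.17, adjusted p = 0.0481 from edgeR). Its ranges overlapped, from 20.4 to 44.8 CPM in control mice, from 22.1 to 34.1 CPM with nilotinib 30 mg/kg and from 18.5 to 34.6 CPM with L-NAME. Both calls of Nln were lost with the share of reads outside genes as a covariate, at -0.48 with nilotinib 30 mg/kg and -0.40 with L-NAME, and without a filter on low counts, at -0.55 and -0.50. The call with L-NAME was also lost with DESeq2's size factors (-0.47) and without the most deeply sequenced L-NAME mouse (-0.50). In the other groups the log2 fold change of Nln lay between -0.36 with ponatinib 10 mg/kg and -0.25 with nilotinib 10 mg/kg, and none was called. Prep, prolyl oligopeptidase, fell with ponatinib 10 mg/kg by 0.44 on the log2 scale (SE 0.14, adjusted p = 0.0331 from edgeR), from 37.2 to 27.4 CPM on average, and 6 of 8 mice were below the lowest control mouse. With the covariate the log2 fold change of Prep was -0.33, and it was no longer called. Without the covariate, the other groups lay between -0.33 with nilotinib 30 mg/kg and -0.03 with nilotinib 10 mg/kg, and none was called.

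The remaining 7 tested genes, Atp6ap2, Prcp, Thop1, Lnpep, Rnpep, Dpp3 and Agtrap, passed in no comparison. Between the doses of ponatinib, between the doses of nilotinib and between ponatinib and nilotinib at 10 mg/kg, 0 of the 11 genes passed in edgeR and in DESeq2, with 2, 1 and 2 at an unadjusted p below 0.05 in edgeR, and voom called 1 between the ponatinib doses. Of all genes, edgeR called 1.39%, 0% and 2.06%, and the shares under the other settings were not counted. Between ponatinib and nilotinib at 10 mg/kg the log2 difference of Anpep was 0.04 with a 95% interval of -0.19 to 0.26, and that of Ctsa 0.16 with an interval of -0.01 to 0.33. For Lnpep, which has few reads, the log2 difference was -1.25 with an interval of -2.47 to -0.03, and it was not called (edgeR's adjusted p = 0.327).

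**Figure D5:**
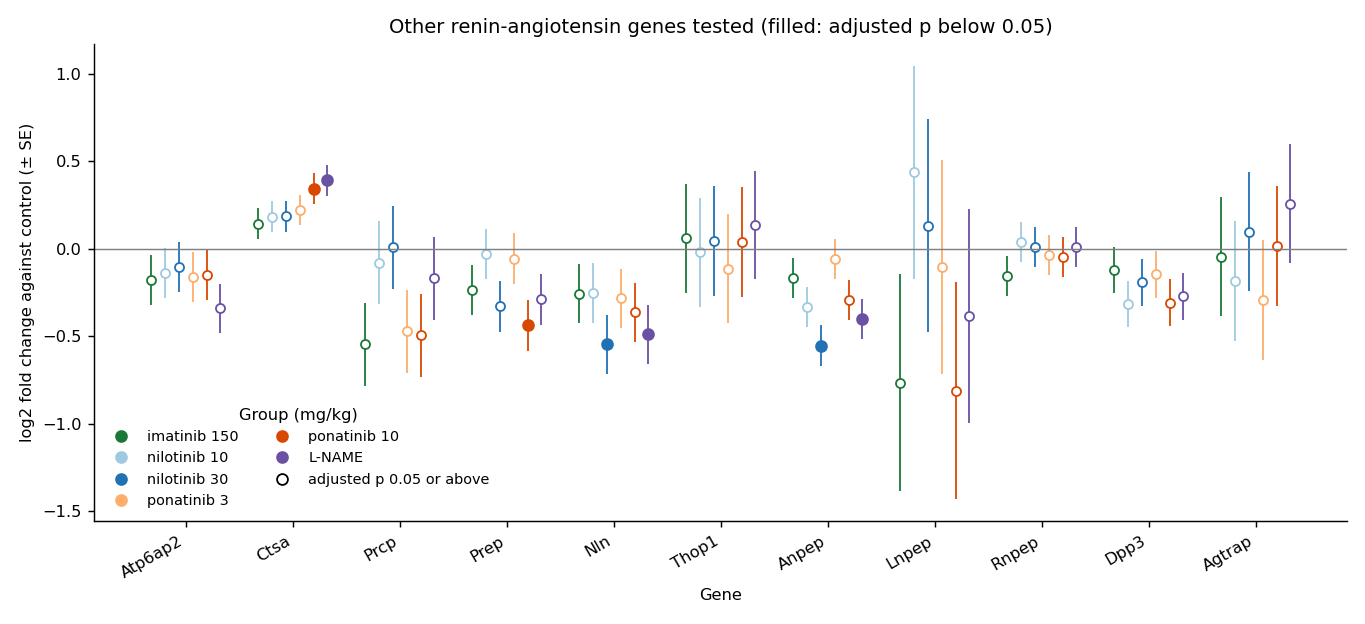
log2 fold change against control, with its SE, of the 11 further renin-angiotensin genes with enough reads, by group (doses in mg/kg); filled points passed an adjusted p below 0.05. Ctsa is filled above 0 with ponatinib 10 mg/kg (0.34) and L-NAME (0.39), and Anpep and Nln are filled below 0 with nilotinib 30 mg/kg and L-NAME.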

How the data were processed

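Total RNA was extracted from the livers of 56 mice, and poly(A) mRNA was sequenced. Per the labels and the study's methods, the authors aligned reads to GRCm38 with TopHat2 2.0.14 and Bowtie2 2.1.0 and deposited raw counts per gene from HTSeq 0.6.1p1, 1 table per mouse, without normalization. The strand setting is not given in the sources used here. Symbols were assigned to 44671 of the 45513 Ensembl identifiers with GENCODE vM21.

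Counts were analysed with edgeR 4.0.16 (TMM, filterByExpr by group, quasi-likelihood test) in 1 fit of the 7 groups, which left 14314 genes. Benjamini-Hochberg adjustment ran over all of them, and a gene was called at an adjusted p below 0.05. The SE of a log2 fold change is its size over the square root of F. Log2 CPM used a prior count of 2. The code was tested on simulated data. No batch, litter or pairing is in the labels, and no 2 count tables were identical.

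The 6 genes, the 20 further genes and the marker lists were chosen with earlier results of these data known, and 1 more gene of the system is not reported here. The naming rule was to name all 6 genes in every group, each further gene called against control, and the 5 genes most alike in pattern. Alternatives were DESeq2 1.42.0, its size factors in edgeR, limma 3.58.1 (voom with sample quality weights), no filter on low counts, a fit of the compared groups only, the share of reads outside genes as a covariate, and an unadjusted p below 0.01, the study's cut-off. Leaving out the deepest library was chosen after seeing the data. A count of 0 is given with the level that 3 reads would have, which covers counting error only.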

Additional observations from a re-analysis of the deposited data

Results flagged for a closer look

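In 65 sets of 8 mice, 1 gene in 1 group each, 7 had a mouse whose distance to its nearest neighbour was more than 0.526 of the whole range (Dixon's test at 95%), and chance flags about 1 set in 20. Enpep was at 292.26 CPM in 1 mouse given ponatinib 10 mg/kg (2147 reads), where the other 7 mice lay between 86.96 and 143.37 CPM. Agtr1a was at 163.508 CPM in 1 mouse given nilotinib 10 mg/kg, against at most 107.06 CPM in the others. Ctsg was at 1.39778 CPM (10 reads) in 1 mouse given ponatinib 3 mg/kg and at 0 in the others of the group. With 7 mice at 0, any single mouse with reads is flagged, so the rate of chance does not hold for that set. Mme was lowest at 58.3185 CPM in 1 control mouse, against 66.63 CPM or more in the others. Nln was at 18.5761 CPM in 1 mouse given imatinib, below 28.77 CPM in the next, and at 34.0933 CPM in 1 mouse given nilotinib 30 mg/kg, above 25.15 CPM in the next. Prep was at 39.074 CPM in 1 mouse given ponatinib 10 mg/kg, against at most 29.06 CPM in the others.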

How the results depend on the processing

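Of the 45 log2 fold changes of the 5 genes described, 5 were called, and all 35 values of these under the 7 alternatives kept their sign. In 30 of the 35 the call remained, in 4 it was lost and in 1, Ace with imatinib in DESeq2, no adjusted p was given. All are fits of the same counts to genes chosen with results known, so kept signs and calls support nothing. DESeq2 gave none for Ace in 6 comparisons. The lost calls were 3 under the covariate for reads outside genes, Agt with ponatinib 10 mg/kg (0.36), Enpep with L-NAME (-0.67) and Enpep with nilotinib 30 mg/kg (-0.56), and Agt between ponatinib and nilotinib at 10 mg/kg (0.43) with only these groups in the fit. Calls were gained in 11 cases, among them Enpep with nilotinib 10 mg/kg in DESeq2, in voom and with only the compared groups. Of the 11 further genes tested, voom called 1 with imatinib, 1 with nilotinib 10 mg/kg, 1 with ponatinib 3 mg/kg, 7 with ponatinib 10 mg/kg, 5 with L-NAME and 1 between the ponatinib doses. With the covariate 1 gene was called with each of L-NAME, nilotinib 30 mg/kg and ponatinib 10 mg/kg. An unadjusted p below 0.01 gave 1 gene with nilotinib 10 mg/kg and 1 between ponatinib and nilotinib at 10 mg/kg, and no filter on low counts left 1 with nilotinib 30 mg/kg. The shares of all genes called under these alternatives were not counted, so nothing is read from the numbers of genes called. The causes of the differences between settings were not tested. No paired analysis was possible because the replicate numbers were given in accession order and pair no mice. Ace and Ctsg are limited by depth, with a median of 7570238 gene reads per mouse.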
